A study of Mus musculus with 6 samples.

Results

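The 8 genes of the mouse Fc receptor family described here were Fcgr1, Fcgr3, Fcgr4, Fcgr2b, Fcer1g, Fcgrt, Fcer1a and Ms4a2, taken by name from the 20649 genes of a single-cell RNA table, and all 8 were found. Immune cells (CD45+ enriched) came from subcutaneous tumors of CT26, a murine line of colon carcinoma, in BALB/c mice. Tumors received 3 intratumoral injections, every other day, of exoASO-STAT6 (exosomes loaded with an antisense oligonucleotide against Stat6) or of exoASO-Scramble (the same vehicle with a control oligonucleotide), and were collected 24 hours after the last injection, with 3 samples in each group. Both groups thus carried exosomes, an oligonucleotide and the injections themselves. All cells stand in 1 table of 9235 barcodes (1 barcode is a droplet taken to hold 1 cell) from 6 libraries, numbered 3 to 8 by their barcode endings. These numbers match no sample label, so the treatment of a library is unknown, no treatment comparison was made, and the table counts as 1 pooled sample.

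Fc receptors bind the constant part of antibodies. In the mouse, FcγRI (Fcgr1), FcγRIII (Fcgr3) and FcγRIV (Fcgr4) are activating receptors for IgG that signal through the shared Fc receptor γ chain (Fcer1g), which carries an activation motif read by the kinase Syk, whereas FcγRIIB (Fcgr2b) carries an inhibitory motif that recruits the phosphatase SHIP (Inpp5d). The level of activating against inhibitory receptors is known to set how strongly a macrophage answers antibody-coated cells. Fcgrt encodes the neonatal Fc receptor, which pairs with β2-microglobulin (B2m) and returns IgG from endosomes, and Fcer1a and Ms4a2 encode the α and β chains of the high-affinity IgE receptor of mast cells and basophils.

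Positions are those of GRCm38. On chromosome 1, Fcgr2b (ENSMUSG00000026656.15, chr1:170958617-170976547), Fcgr4 (ENSMUSG00000059089.4, chr1:171018920-171029761), Fcgr3 (ENSMUSG00000059498.13, chr1:171051174-171064935) and Fcer1g (ENSMUSG00000058715.11, chr1:171229572-171234365) are close neighbours, Fcer1a (ENSMUSG00000005339.10) lies at chr1:173221284-173227214, and Fcgr1 (ENSMUSG00000015947.10) lies at chr3:96282909-96293969. Fcgrt (ENSMUSG00000003420.8) lies at chr7:45092990-45103851 and Ms4a2 (ENSMUSG00000024680.12) at chr19:11615523-11623719. Fcgr4 is on the plus strand and the other 7 genes are on the minus strand. Fcgr2b and Fcgrt each overlap an annotated gene on the other strand (Gm38204 and Gm45669), and Fcgr3 and Fcgr4 each overlap one on their own strand (Mir6546 and Gm26110). Of the 2424 words of 50 bases in the last 500 bases of Fcgr2b transcripts, 33 (1.36%) also occur in Fcgr3, and no such word of the other 7 genes occurs in another gene, so few 3′-end reads could be split between these paralogs.

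The 200 bases before the RefSeq start (GRCm38.p6) of the 4 Fcγ receptor genes are shown because Fcgr1 and Fcgr4 had higher levels, and Fcgr3 and Fcgr2b lower ones, in macrophages with the interferon-induced transcript Rsad2 (values given further on). Each runs 5′ to 3′ on the strand of its gene, with capitals at matches, on either strand, to TTCNNNGAA (the letters of a STAT site), GAAANNGAA (of an interferon-response element) or GAGGAAG (of a PU.1 site). Each of the 8 genes had a RefSeq entry, and of the 2 of Fcgr3 the first was used.
Fcgr1 promoter, chr3:96293970-96294169: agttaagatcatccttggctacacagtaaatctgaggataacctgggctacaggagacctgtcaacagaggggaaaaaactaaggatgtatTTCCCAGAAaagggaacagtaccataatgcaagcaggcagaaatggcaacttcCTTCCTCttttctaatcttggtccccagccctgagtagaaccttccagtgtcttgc
Fcgr4 promoter, chr1:171018726-171018925: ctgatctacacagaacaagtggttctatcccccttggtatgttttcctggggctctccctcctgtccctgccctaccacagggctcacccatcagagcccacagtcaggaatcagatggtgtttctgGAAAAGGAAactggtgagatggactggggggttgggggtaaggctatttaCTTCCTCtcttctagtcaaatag
Fcgr3 promoter, chr1:171059404-171059603: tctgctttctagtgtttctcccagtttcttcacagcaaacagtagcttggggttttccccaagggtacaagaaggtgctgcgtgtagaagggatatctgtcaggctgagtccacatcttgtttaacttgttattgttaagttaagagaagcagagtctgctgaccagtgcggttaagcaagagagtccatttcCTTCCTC
Fcgr2b promoter, chr1:170976072-170976271: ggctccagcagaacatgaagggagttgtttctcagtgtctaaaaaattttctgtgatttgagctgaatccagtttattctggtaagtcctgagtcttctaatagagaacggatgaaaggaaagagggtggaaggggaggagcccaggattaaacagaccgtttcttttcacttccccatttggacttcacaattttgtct
Fcgr1 held TTCNNNGAA (TTCCCAGAA) at 109 to 101 bases before the start and GAGGAAG, read on the other strand as CTTCCTC, at 56 to 50 bases. Fcgr4 held GAAANNGAA (GAAAAGGAA) at 73 to 65 bases and GAGGAAG on the other strand at 23 to 17 bases. Fcgr3 held GAGGAAG on the other strand at 7 to 1 bases, and Fcgr2b held none of the 3. No matches overlapped. Among 32851 mouse promoters of the same length, 5.49% held TTCNNNGAA, 5.57% held GAAANNGAA and 8.84% held GAGGAAG. A match describes letters only.

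The table holds 140562949 UMIs (unique molecular identifiers, each a captured transcript), with 11492757 to 33902084 per library and medians of 7270 (library 5) to 16125 (library 4) per barcode, and 16 barcode sequences occur in more than 1 library. Levels are UMIs of a gene per 1000000 UMIs of a set of barcodes (CPM), with exact 95% Poisson intervals, and shares have exact Clopper-Pearson intervals. Both cover counting error only. UMIs count 3′ ends and were not divided by gene length, and the capture of each gene was not measured, so values of different genes are compared as UMIs and not as protein. Macrophage barcodes were those with at least 3 UMIs of Csf1r and Adgre1 and none of Cd3e or Ncr1. The other sets were S100a9 (at least 5 UMIs, the neutrophil rule), Flt3 (at least 1, dendritic cells), Ncr1 (at least 1, natural killer or NK cells), Cd79a (at least 2, B cells) and Mcpt8 (at least 1, basophils), with Cd3e barcodes (at least 2, T cells) as a set that should largely lack these receptors.

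These rules alone did not separate cell types. Macrophage transcripts (Csf1r or Adgre1) were present in 95.8% of the 1049 S100a9 barcodes, 71.1% of the 1163 Ncr1 barcodes, 70.3% of the 344 Flt3 barcodes, 57.3% of the 82 Cd79a barcodes and 53.3% of the 90 Mcpt8 barcodes. In these whole sets the 4 Fcγ receptors stood in nearly the proportions of macrophages, with 62.7% to 67.9% of their UMIs from activating genes. The sets below therefore leave out barcodes with a UMI of Csf1r or Adgre1, which kept 44, 336, 102, 35 and 42 barcodes, and 272 Cd3e barcodes. Their median depth was 6996 UMIs in the S100a9 set, against 19067 before, and 6845 in the Ncr1 set, against 19921. In the S100a9 set C1qa remained at 388 CPM and macrophage markers summed to 3464 CPM (2153 to 6270 over libraries, 6 of 8 present). The sum was 11687 CPM in macrophages, where it includes Csf1r and Adgre1, which the rule sets to 0 in the S100a9 set. The S100a9 set thus still held transcripts of macrophage markers, with NK markers at 430 CPM (0 to 696) and T cell markers at 369 CPM (0 to 1281). Leaving out the gene of the rule, the Cd79a set had all 4 other B cell markers (summed level 2125 CPM), the Flt3 set all 8 other dendritic markers (2664 CPM) and the Ncr1 set all 5 other NK markers (12345 CPM). Markers of other cells were present too. In the Cd79a set T cell markers summed to 849 CPM (0 to 3015 over libraries), macrophage markers to 581 CPM (214 to 1015) and NK markers to 466 CPM (0 to 1639), in the Flt3 set macrophage markers to 376 CPM (182 to 667) and T cell markers to 101 CPM (20.4 to 393), and in the Ncr1 set T cell markers to 223 CPM (38.0 to 513). In the Cd3e set NK markers summed to 969 CPM (22.7 to 1286, 5 of 6 present, Ncr1 at 0) and mast cell markers to 417 CPM (4.64 to 2410, 5 of 5).

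In tumor macrophages, transcripts of activating and inhibitory Fcγ receptors were detected together in most barcodes. Fcgr2b had the highest level of the 4 (812 CPM, 59316 UMIs), followed by Fcgr3 (702 CPM), Fcgr4 (530 CPM) and Fcgr1 (421 CPM), over 4688 macrophage barcodes. Fcgr2b was above Fcgr3 in 5 of 6 libraries, and in library 7 it was below (690 against 717 CPM). The signalling chain Fcer1g reached 2797 CPM, or 1.69 UMIs for each UMI of the 3 activating receptors together. Macrophages held 60.0% to 63.2% of all UMIs of Fcgr1, Fcgr3, Fcgr4, Fcgr2b, Fcer1g and Fcgrt in the table, beside 51.9% of the UMIs of all genes.

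Activating genes gave 67.1% (interval 66.8% to 67.3%) of the Fcγ receptor UMIs of macrophages, of which Fcgr3 was 28.5%, Fcgr4 21.5% and Fcgr1 17.1%. In libraries 3 to 8 this activating share was 65.5%, 68.3%, 53.7%, 69.2%, 70.7% and 69.4%. Library 5 was thus the lowest, and the other 5 libraries lay within 65.5% to 70.7%, a spread that is far wider than the counting interval. With each barcode reduced to 5000 UMIs (4431 barcodes), 52.2% held all 4 receptors, 87.3% held Fcgr2b with at least 1 activating receptor, 11.9% held activating receptors without Fcgr2b, and only 0.632% (28 barcodes) held Fcgr2b alone. In 192 Cd3e barcodes at the same depth, 1.04% held all 4 and 6.77% held Fcgr2b with an activating receptor. No doublet caller was run, and a barcode that holds 2 macrophages cannot be told apart here. All 4 were seen together in 36.5% of barcodes of library 5, in 219 of 438 barcodes of library 3 and in 51.8% to 61.9% of those of the other 4 libraries.

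Among single macrophages of equal depth the members were weakly related. Pearson's r over the 4431 barcodes was 0.30 for Fcgr1 with Fcer1g and 0.30 for Fcgr4 with Fcer1g, 0.29 for Fcgr3 with Fcgr2b, 0.20 for Fcgr2b with Fcgrt, and -0.024 for Fcgr1 with Fcgr2b. Within libraries r ranged from 0.17 to 0.33 for Fcgr1 with Fcer1g, from 0.18 to 0.39 for Fcgr4 with Fcer1g and from 0.22 to 0.33 for Fcgr3 with Fcgr2b. These barcodes share libraries, and the counts are sparse, so the values are a description.

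**Figure D1:**
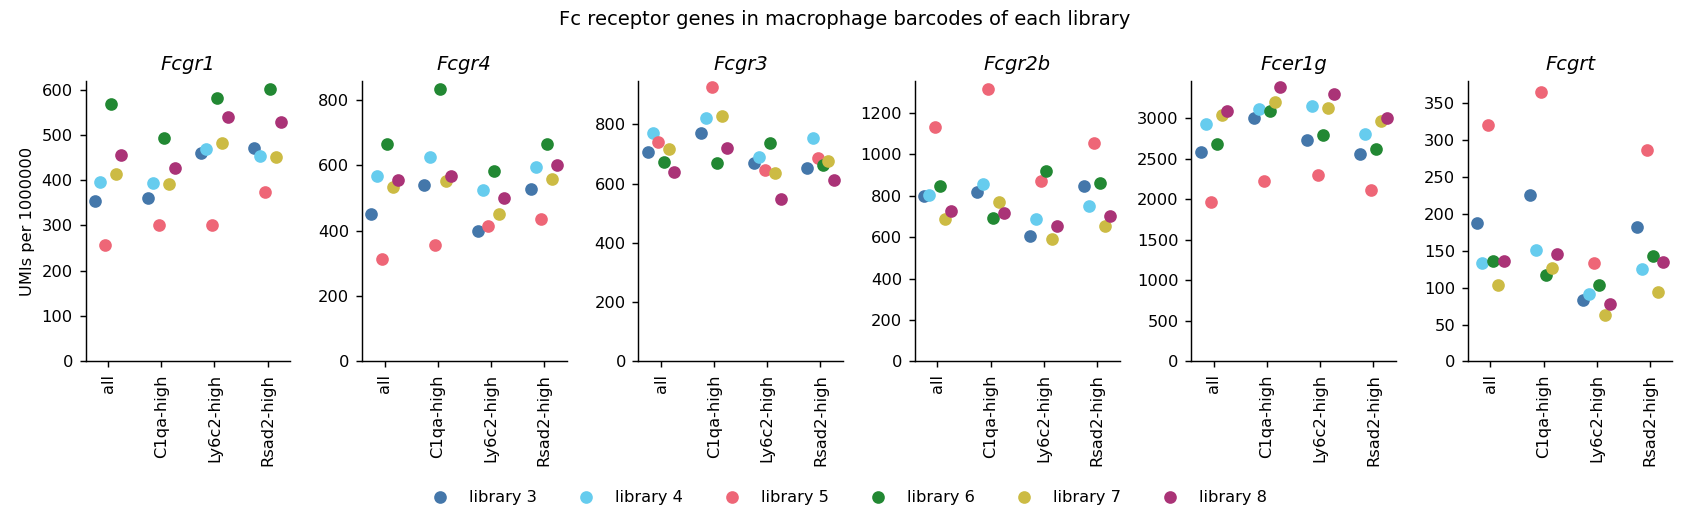
Level of 6 Fc receptor genes (vertical axes, UMIs per 1000000 UMIs, each from 0) in macrophage barcodes of each library (coloured points), for all macrophages and for the C1qa-high, Ly6c2-high and Rsad2-high sets. Over all macrophages, library 5 lies below the other libraries for Fcgr1 (258), Fcgr4 (314) and Fcer1g (1971) and above them for Fcgr2b (1133) and Fcgrt (320).

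Over all macrophages library 5 stood apart in the receptor pattern, and its treatment is not known. Fcgr1, the high-affinity IgG receptor, was at 354, 397, 258, 568, 414 and 455 CPM in libraries 3 to 8. Fcgr4, the receptor for IgG2a and IgG2b, was at 452, 566, 314, 665, 534 and 555 CPM. Fcer1g was at 2577, 2928, 1971, 2686, 3045 and 3091 CPM. For all 3 the level of library 5 was the lowest. Fcgr2b, the inhibitory receptor, was at 797, 803, 1133, 847, 690 and 726 CPM, and Fcgrt at 188, 133, 320, 137, 104 and 136 CPM, both highest in library 5. Fcgr3, the low-affinity activating receptor, was at 706, 770, 741, 674, 717 and 640 CPM, and here library 5 lay within the range of the others. In the Ly6c2-high macrophages described further on, library 5 was also within that range for Fcgr4 (414 against 399 to 582 CPM) and Fcgr2b (869 against 589 to 920 CPM). It was beyond the range there for Fcgr1, Fcer1g and Fcgrt.

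Counting a gene as outside where library 5 was at least 1.2-fold beyond every other library, 5 of the 6 members with at least 20 CPM were outside, and so were 779 of 5597 genes in all (13.9%). Against the median of the other libraries Fcgr4 was 1.76-fold lower and Fcgr1 1.60-fold lower, and Fcgrt was 2.35-fold higher and Fcgr2b 1.42-fold higher. Library 6 was outside for 1 member (Fcgr1, high) and 15.3% of all genes, and library 7 for 1 (Fcgrt, low) and 0.733%. Retnla, a gene of alternatively activated macrophages, was at 835 CPM in the macrophages of library 5 and at 0.312 to 32.1 CPM in the others. Macrophages with no UMI of Retnla or of Cd163 (542 barcodes in library 5) were also compared. Library 5 was the lowest there for Fcgr1 (307 against 365 to 583 CPM), Fcgr4 (348 against 446 to 689) and Fcer1g (2113 against 2605 to 3123). It was the highest for Fcgr2b (1088 against 678 to 794) and Fcgrt (203 against 98.7 to 160, or 1.79-fold above the median of the others). A barcode with no UMI of these genes can still hold a cell that expresses them, so the part of such cells was not tested. Library 5 was also the shallowest, and the part of depth in these levels was not tested.

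The macrophages were divided by C1qa (a complement gene of mature macrophages), Ly6c2 (of inflammatory monocytes) and Rsad2, each at the 1563 barcodes with the highest value per 10000 UMIs. C1qa-high barcodes (1168) were high for C1qa only and Ly6c2-high barcodes (730) for Ly6c2 only, while Rsad2-high barcodes (1563) could have any C1qa and Ly6c2. These are ranges of a gradient and not cell types, with 780 barcodes within 1.25-fold of the C1qa limit, 211 of the Ly6c2 limit and 240 of the Rsad2 limit. The C1qa-high set was the deepest (median 17963 UMIs, against 10422 in the Ly6c2-high set).

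Of the 6 members tested, and over all libraries together, C1qa-high and Ly6c2-high macrophages differed most in the neonatal Fc receptor. In library 6 the log2 difference of Fcgrt was 0.18, against 0.51 for Fcgr4 and -0.41 for Fcgr2b. Fcgrt was at 172 CPM (interval 166 to 177) in C1qa-high and 90.6 CPM (84.5 to 97.1) in Ly6c2-high macrophages, 1.88-fold apart and higher in C1qa-high barcodes of 6 of 6 libraries. By library, the C1qa-high levels were 226, 151, 365, 117, 126 and 146 CPM and the Ly6c2-high levels 83.5, 91.5, 134, 103, 62.4 and 77.5 CPM, so the ranges of the 2 sets overlapped between libraries. It was the 1 member of 6 that was at least 1.5-fold apart with the same direction in every library, a rule of size that 16.8% of all 5925 genes met. There is no test behind this rule, and the libraries are not replicates of a known group.

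The activating receptors did not move as a block between these macrophages. Fcgr1 was at 394 CPM in C1qa-high and 490 CPM in Ly6c2-high barcodes, a log2 difference of -0.31, with the lower value in C1qa-high barcodes of each of the 6 libraries, although in library 5 by only -0.0056. Fcgr3 went the other way, at 794 against 648 CPM (log2 difference 0.29, higher in 5 of 6 libraries), as did Fcgr4, at 569 against 492 CPM (0.21, 5 of 6), and Fcgr2b, at 836 against 734 CPM (0.19, 5 of 6). Library 6 was the exception for Fcgr3 and Fcgr2b and library 5 for Fcgr4, and without library 6 the Fcgr2b difference was 0.31. With the limit at the top 50% of barcodes the Fcgr4 difference was 0.092. Fcer1g differed by 0.075, or by -0.033 at the top 50%, and none of these 5 genes reached 1.5-fold. The activating share was 67.8% (67.4% to 68.1%) in C1qa-high and 69.0% (68.3% to 69.6%) in Ly6c2-high macrophages, with library ranges of 54.6% to 74.3% and 61.0% to 72.7%. Within libraries 3 to 8 it was 67.1%, 68.2%, 54.6%, 74.3%, 69.7% and 70.6% in C1qa-high and 71.6%, 70.9%, 61.0%, 67.4%, 72.7% and 70.9% in Ly6c2-high barcodes. It was thus lower in the C1qa-high barcodes of 5 libraries and higher in those of library 6. With doubled UMI minimums the pooled shares stood the other way, at 68.1% in C1qa-high and 66.5% in Ly6c2-high barcodes. Neutrophil markers summed to 399 CPM (167 to 875 over libraries) in C1qa-high and 1056 CPM (234 to 1582) in Ly6c2-high macrophages, with all 7 present in both, and basophil markers to 5.88 CPM (4.51 to 8.68, 4 of 5 present, Mcpt8 at 0) and 69.1 CPM (16.7 to 135, 5 of 5). Their part in the receptor and signalling values was not tested.

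Downstream of the receptors, 4 of the 19 tested genes of a fixed list of 22 signalling genes met the rule, all lower in C1qa-high macrophages, and none was higher. Of all genes 16.8% met it in either direction, so nothing is read from this count. Fgr, a Src-family kinase, was at 31.0 against 105 CPM, and Syk, the kinase that binds the γ chain, at 88.7 against 164 CPM. The ubiquitin ligase Cbl was at 108 against 166 CPM and the adaptor Nfam1 at 44.7 against 72.9 CPM. The median log2 difference of the list was -0.097, beside -0.028 over all genes tested. The kinase Lyn (338 against 349 CPM), the adaptor Tyrobp (1917 against 2114) and Inpp5d (136 against 142) stayed close, as did B2m, the partner of Fcgrt (2812 against 2705). Fcrls, an Fc receptor-like gene, was at 29.0 against 4.79 CPM and met the rule. Of the antibody chains, Igkc was at 7.49 CPM in C1qa-high and 388 CPM in Ly6c2-high macrophages, lower in 6 of 6 libraries by log2 differences from -5.87 (library 7) to -0.37 (library 4). Ighm was at 82.7 against 392 CPM, but higher in C1qa-high barcodes of 3 of 6 libraries, with library 7 at -4.01. Jchain was at 0.314 against 56.4 CPM and higher in 2 of 6. The part of free RNA from antibody-producing cells in these values was not tested.

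**Figure D2:**
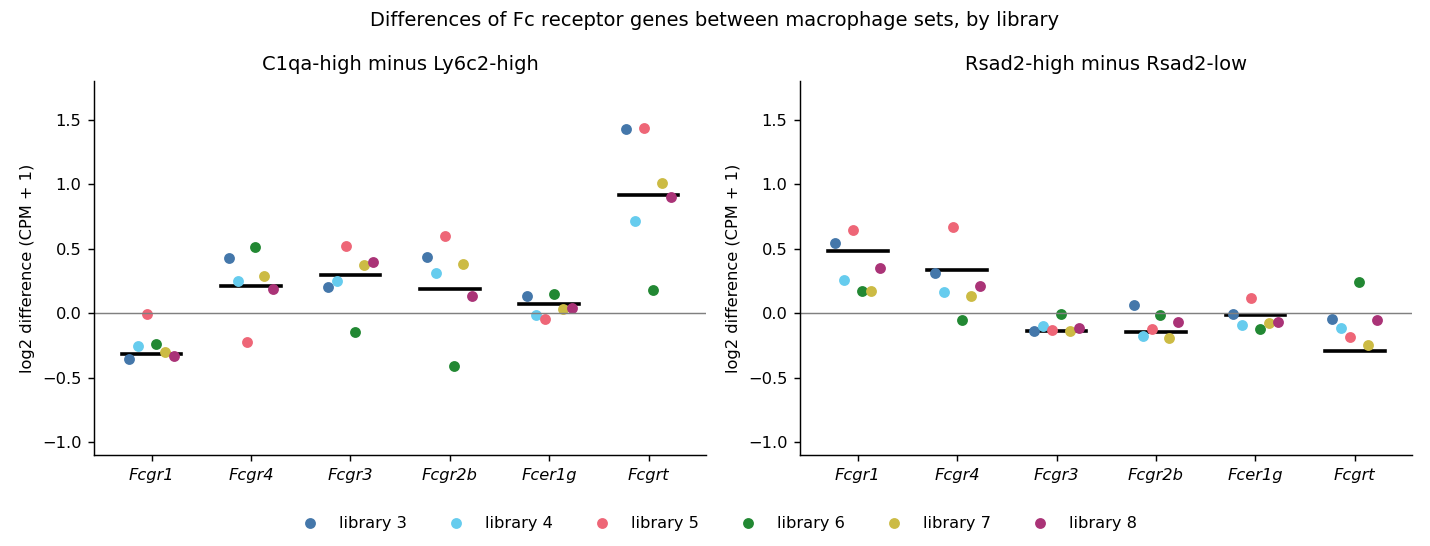
Log2 difference (vertical axis, of CPM + 1) of 6 Fc receptor genes between C1qa-high and Ly6c2-high macrophages (left) and between Rsad2-high and Rsad2-low macrophages (right); points are libraries and black bars the value over all libraries together. Fcgrt is above 0 in every library on the left, and Fcgr1 is above 0 in every library on the right (0.17 to 0.65).

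Macrophages with interferon-induced Rsad2 had more Fcgr1 and Fcgr4 transcript, with small differences in Fcgr3 and Fcgr2b. Rsad2-low macrophages were the 2576 barcodes with no Rsad2 UMI, of nearly the same median depth (12346 against 12754 UMIs). Fcgr1 was at 513 CPM (504 to 523) in Rsad2-high and 368 CPM (362 to 374) in Rsad2-low barcodes, 1.40-fold higher and higher in 6 of 6 libraries. In libraries 3 to 8 the Rsad2-high levels were 471, 453, 375, 602, 450 and 528 CPM and the Rsad2-low levels 323, 380, 239, 533, 399 and 414 CPM. Each library was higher in its own Rsad2-high barcodes, while the ranges across libraries overlapped.

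Fcgr4 was at 596 against 473 CPM (log2 difference 0.33), higher in 5 of 6 libraries, with library 6 at -0.055. Fcgr3 was at 664 against 731 CPM (-0.14), lower in all 6 libraries, and Fcgr2b at 779 against 860 CPM (-0.14), lower in 5 of 6. Without library 5 the Fcgr2b difference was -0.060, beside a median of -0.054 over all genes with every library. Fcer1g differed by -0.011. Fcgrt differed by -0.30 over all barcodes, by -0.073 without library 5 and by -0.24 to 0.25 within libraries. None of the 6 members met the rule of 1.5-fold, which 4.67% of 5807 genes did. Library 6 gave 443 of the Rsad2-high and 166 of the Rsad2-low barcodes, and library 5 gave 144 and 654, so the values over all barcodes partly compare libraries and the within-library values are the closer ones. The activating share was 69.5% in Rsad2-high and 64.6% in Rsad2-low macrophages. It was higher in the Rsad2-high barcodes of each library, at 66.1%, 70.5%, 58.7%, 69.2%, 72.1% and 71.2% in libraries 3 to 8, against 64.4%, 66.9%, 52.4%, 68.5%, 68.8% and 68.4%.

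The Fcgr1 and Fcgr4 differences were also present among macrophages high in C1qa or in Ly6c2, while those of Fcgr3 and Fcgr2b had no steady direction there. Among the barcodes highest in C1qa, Fcgr1 was at 460 CPM with high Rsad2 (316 barcodes) and 393 CPM without (979), a log2 difference of 0.23, and Fcgr4 at 680 and 552 CPM (0.30). Among those highest in Ly6c2, Fcgr1 was at 651 CPM with high Rsad2 (754 barcodes) and 493 CPM without (662), a difference of 0.40, and Fcgr4 at 585 and 514 CPM (0.19). Fcgr1 was higher in 6 of 6 libraries and Fcgr4 in 5 of 6 in both. Fcgr3 differed by -0.071 (3 of 6 libraries higher) in the first and -0.028 (interval -0.081 to 0.025, 3 of 6) in the second, and Fcgr2b by -0.12 (2 of 6) and -0.040 (-0.090 to 0.0095, 3 of 6). None of the 6 members met the rule in either subset, and 2.73% and 3.01% of all genes did. Rsad2-high, Ly6c2-high barcodes thus had the highest pooled Fcgr1 level of these macrophage sets. Library 6, the highest in Fcgr1 over all macrophages, gave 267 of these 754 barcodes, but 87 of the 662 without Rsad2 and 33 of the 316 high in C1qa and Rsad2. Within libraries the Fcgr1 difference among those highest in Ly6c2 ranged from 0.12 (library 6) to 0.58 (library 5). Among barcodes highest in C1qa the activating share was 70.3% with high Rsad2 and 66.7% without, but 69.9% and 75.7% in library 6. Among those highest in Ly6c2 it was 72.0% and 68.9%, but 67.4% and 69.5% in library 3. The other libraries kept the direction of the pooled shares. The signalling genes gave 0 of 19 past the rule in each of these 3 comparisons. Between all Rsad2-high and Rsad2-low macrophages B2m was at 3296 against 2663 CPM and was higher in 6 of 6 libraries, below 1.5-fold. Fcrls was at 9.72 against 25.8 CPM there and met the rule, but it did not among the barcodes highest in C1qa (a log2 difference of -1.30, lower in 5 of 6 libraries) and was too low to be compared among those highest in Ly6c2. Neutrophil markers summed to 1916 CPM (462 to 2353 over libraries) in Rsad2-high macrophages and 428 CPM (170 to 782) in Rsad2-low macrophages, with all 7 markers present in both, and their part in these values was not tested.

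**Figure D3:**
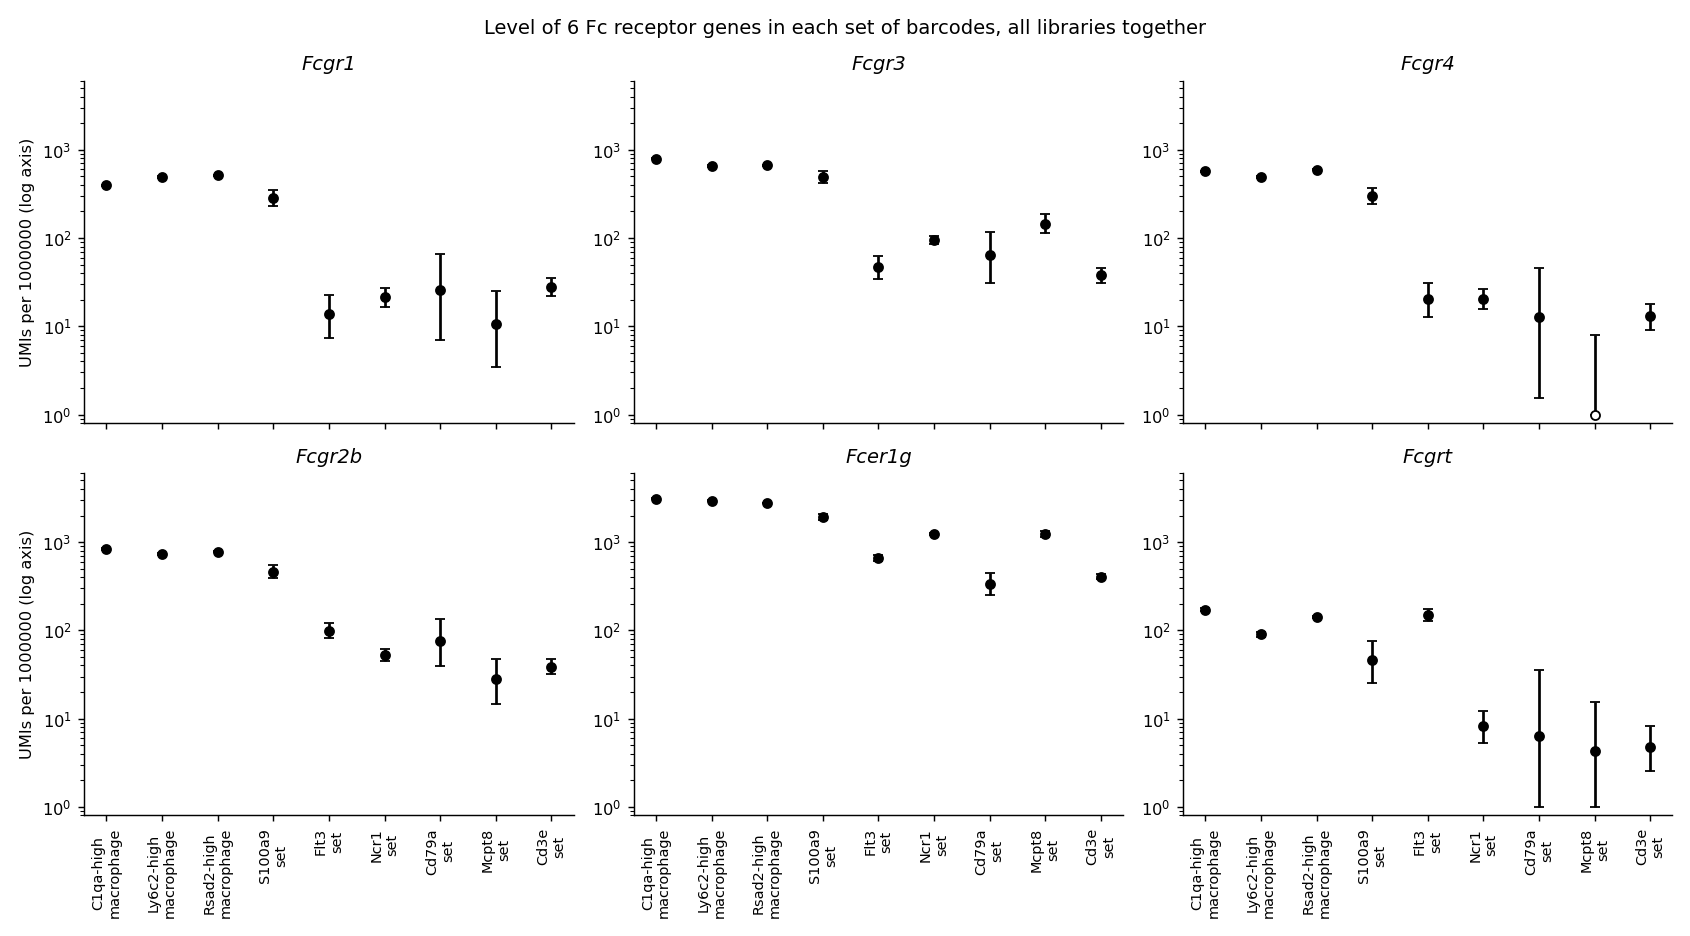
Level of 6 Fc receptor genes in each set of barcodes over all libraries (vertical log axis, UMIs per 1000000 UMIs; bars are 95% Poisson intervals, and the open point is a value of 0 drawn at 1). The 3 macrophage sets lie together at the top for the 4 Fcγ receptors, while Fcer1g stays at 1238 in the Ncr1 set and Fcgrt at 149 in the Flt3 set.

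Outside macrophages the order of the sets differed from gene to gene. Fcgr1 stood between 394 and 513 CPM in the 3 macrophage sets, at 284 CPM (229 to 348) in the S100a9 set and between 10.7 and 28.0 CPM in the other sets, where the intervals of all neighbours overlapped and the Cd3e set was the highest. Fcgr4 was at 299 CPM in the S100a9 set, at 12.8 to 20.6 CPM in the Ncr1, Flt3, Cd3e and Cd79a sets, with overlapping intervals between neighbours, and at 0 of 466790 UMIs in the Mcpt8 set, which allows up to 6.43 CPM (3 UMIs). Levels of 12.9 CPM for Fcgr4 and 28.0 CPM for Fcgr1 in Cd3e barcodes were taken as the level to compare with. The source of these UMIs was not tested. The Ncr1, Flt3 and Cd79a sets were not above the Cd3e set for Fcgr1. Between the Ncr1 and Cd3e sets Fcgr4 differed by 0.63 on the log2 scale (counting interval 0.038 to 1.23), higher in 5 of 6 libraries. Fcgr2b was at 464 CPM in the S100a9 set, 99.2 CPM in the Flt3 set, 76.6 CPM (39.6 to 134) in the Cd79a set, 52.9 CPM in the Ncr1 set and 38.7 CPM in the Cd3e set. B cells are known to use FcγRIIB as their only classical IgG receptor, but the 12 UMIs of 35 barcodes could not place the Cd79a level apart from its neighbours.

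By the neutrophil rule the activating share was close to that of macrophages, while the pooled levels were lower. All 1049 S100a9 barcodes, 571 of which were also in the macrophage set, had an activating share of 66.6%, and the 44 without Csf1r or Adgre1 had 69.9% (65.7% to 73.9%). In these 44, which the rule chose for lacking 2 macrophage genes, all 6 members lay below the 3 macrophage sets over all libraries, with intervals that did not overlap, as 7.3% of 6493 genes did (Fcgr3 at 494 CPM, 421 to 577, and Fcgrt at 45.8 CPM, 25.6 to 75.5). The libraries gave 3 to 17 of these barcodes each and did not all go this way. Fcgr4 was at 576 CPM in library 5 and 568 CPM in library 7, above the macrophage sets of the same libraries (355 to 436 and 451 to 558 CPM), and Fcgr1 in library 5 was at 432 CPM, against 300 to 375 CPM. Ordered by S100a9 per 10000 UMIs, below 10 (316 barcodes), 10 to 40 (456), 40 to 80 (174) and 80 or more (103), Fcgr1 was at 295, 354, 384 and 439 CPM and Fcgrt at 142, 128, 125 and 88.7 CPM. The activating share in the same order was 65.7%, 67.5%, 65.8% and 67.4%, with no steady direction. The libraries fill these ranges unequally, since libraries 3, 4 and 5 gave 27, 45 and 14 of the 316 barcodes in the lowest and 6, 3 and 1 of the 103 in the highest. In libraries 6 to 8, with at least 20 barcodes in both, Fcgr1 was at 362, 270 and 297 CPM in the lowest and 530, 406 and 395 CPM in the highest range, and Fcgrt at 155, 99.8 and 138 CPM against 125, 53.1 and 103 CPM.

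**Figure D4:**
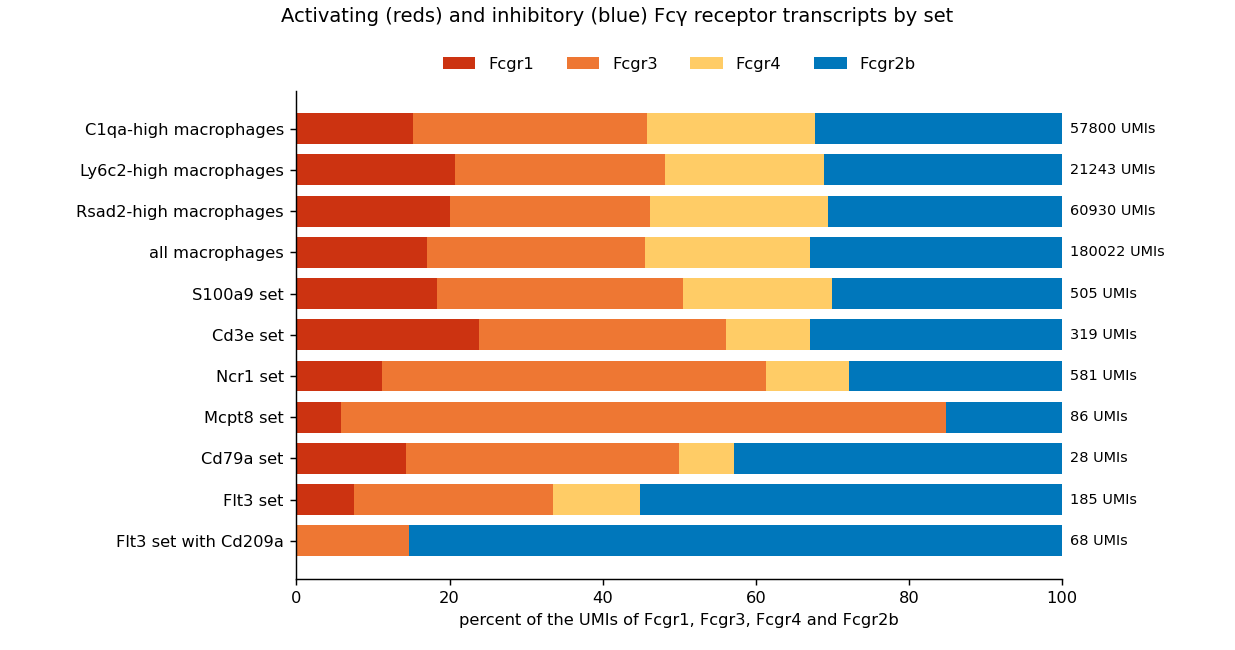
Share of each gene (horizontal axis, percent) among the UMIs of Fcgr1, Fcgr3, Fcgr4 (reds, activating) and Fcgr2b (blue, inhibitory) in sets of barcodes, with the number of these UMIs at the right. Fcgr2b is 32.9% in macrophages and 85.3% in the 11 Flt3 barcodes with Cd209a, and Fcgr3 is 50.1% in the Ncr1 set and 79.1% in the Mcpt8 set.

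Flt3 barcodes, which hold the dendritic cells, had the lowest pooled activating share of the sets, a value that lies within the Cd79a interval (37.2% to 75.5%) and rests on the 11 barcodes with Cd209a described next, since the other 91 had 62.4% (53.0% to 71.2%, 117 UMIs). The share was 44.9% (37.6% to 52.3%, 185 UMIs) in 102 barcodes, with Fcgr2b at 99.2 CPM, Fcgr3 at 46.7, Fcgr4 at 20.4 and Fcgr1 at 13.6 CPM. By library, Fcgr2b was at 42.1, 65.8, 151, 71.9, 50.8 and 112 CPM. Library 5 was the highest, and without it the share was 54.7% and Fcgr2b was at 75.4 CPM (56.5 to 98.6, 69 barcodes). Fcgrt was at 149 CPM (126 to 174), beside 142 CPM in Rsad2-high and 172 CPM in C1qa-high macrophages, but at 88.2 CPM (67.6 to 113) without library 5, an alternative chosen after seeing the data.

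Flt3 barcodes were put in 1 kind each, in the order plasmacytoid, type 1, type 2 and mature. Of their 102 Fcgr2b UMIs, 58 were in the type 2 kind, barcodes with Cd209a that were not plasmacytoid or type 1. Only 11 barcodes were of this kind, 7 of them from library 5. All 11 had Fcgr2b, at 466 CPM (354 to 603), and 10 of the 11 had Fcgrt, at 595 CPM (467 to 747). Fcgr1 and Fcgr4 had 0 UMIs there, which allows up to 24.1 CPM, and Fcgr3 had 10. The activating share of these barcodes was 14.7% (7.28% to 25.4%). Barcodes with Xcr1 or Clec9a (type 1 markers, 21 barcodes) had 61.4 CPM of Fcgr2b, 73.6 CPM of Fcgr3 and 163 CPM of Fcgrt. Those with at least 2 UMIs of Siglech (plasmacytoid, 30) had 75.4 CPM of Fcgr2b and 41.9 CPM of Fcgrt. Those with at least 3 UMIs of Ccr7 and Fscn1 together (mature, 30) had 10.8 CPM of Fcgr2b and 32.4 CPM of Fcgrt. The intervals of Fcgr2b and Fcgrt in Cd209a barcodes did not overlap those of the other 3 kinds. Without library 5, chosen after seeing the data, 4 Cd209a barcodes remained, with Fcgr2b at 411 CPM (235 to 668), still apart from the other kinds, Fcgrt at 257 CPM (123 to 473), overlapping the type 1 barcodes (157 CPM, 110 to 217), and an activating share of 27.3% (10.7% to 50.2%).

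In NK barcodes Fcgr3 had the highest pooled level of the 4 Fcγ receptors, although in library 8 Fcgr2b was above it (143 against 122 CPM). Mouse NK cells are known to use FcγRIII, with the γ chain, for killing of antibody-coated cells. Fcgr3 was at 90.4, 102, 170, 76.6, 56.8 and 122 CPM in the Ncr1 sets of libraries 3 to 8 and at 9.67, 69.7, 56.8, 11.5, 50.7 and 33.4 CPM in the Cd3e sets. Every library was higher in its Ncr1 set, and over all libraries the levels were 95.1 CPM (84.5 to 107) and 38.0 CPM (31.0 to 46.1), a log2 difference of 1.30. Fcer1g was at 1238 against 407 CPM (1.60) and also higher in 6 of 6 libraries. These were the 2 of 5 tested members that met the rule, beside 9.88% of all 5981 genes.

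The inhibitory Fcgr2b was at 52.9 CPM in Ncr1 and 38.7 CPM in Cd3e barcodes, a log2 difference of 0.44 whose counting interval (0.087 to 0.80) left out 0, but it was higher in only 3 of 6 libraries. Macrophage markers other than Csf1r and Adgre1 were detected in both sets, with 6 of 8 present and sums of 461 and 422 CPM (244 to 1067 and 169 to 808 over libraries). After also leaving out barcodes with a C1qa, C1qb or C1qc UMI, Fcgr3 was at 63.6 CPM (50.7 to 78.9) in 168 Ncr1 barcodes and 16.8 CPM (9.96 to 26.6) in 131 Cd3e barcodes, Fcer1g at 1254 and 322 CPM, and Fcgr2b at 43.7 and 43.0 CPM. With each barcode reduced to 1000 UMIs, Fcgr3 was seen in 6.63% of Ncr1 barcodes (34.5% at full depth) and 2.23% of Cd3e barcodes (14.3%), Fcer1g in 68.7% (96.1%) and 25.3% (51.8%), and Fcgr2b in 3.61% (17.6%) and 3.72% (15.8%). The Ncr1 set had 9.05 UMIs of Fcer1g for each activating Fcγ receptor UMI, against 1.69 in macrophages. This ratio was 8.22 in the Flt3, 7.86 in the Mcpt8, 5.15 in the Cd3e, 3.31 in the Cd79a and 1.79 in the S100a9 set. Fcer1g is also known to serve other NK receptors such as NKp46.

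The signalling genes of the 2 lymphocyte sets differed in both directions. Of 17 tested, 5 were higher in Ncr1 barcodes and 5 lower, beside 9.88% of all genes in either direction. Tyrobp, an adaptor related in function to the γ chain, was at 1974 against 155 CPM, the phospholipase Plcg2 at 36.3 against 4.06 CPM, Lat2 at 92.1 against 35 CPM, Syk at 35 against 15.1 CPM and Inpp5d at 107 against 69.3 CPM. The T cell receptor adaptor Lat was at 22.5 against 236 CPM, Plcg1 at 1.31 against 37.6 CPM, Lcp2 at 67.6 against 157 CPM, Ptpn6 at 62.1 against 119 CPM and Cd247 at 44.8 against 110 CPM. The median log2 difference of the list was -0.17, beside -0.11 over all genes.

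In the Cd79a set, receptors for other antibody classes and Fc receptor-like genes were also present. Fcmr, the IgM receptor, was at 421 CPM, Fcer2a, the low-affinity IgE receptor, at 115 CPM and the Fc receptor-like gene Fcrl1 at 89.4 CPM, each below 2 CPM in the other sets. Fcrla, another gene of this list, was at 172 CPM. It was also at 99.2 CPM in the Flt3 set, 42.7 CPM in the S100a9 set and 12.5 CPM in Ly6c2-high macrophages. Fcgr2b was at 76.6 CPM and Fcgrt at 6.38 CPM (1 UMI). Fcgr1 had 4 UMIs, all in 1 barcode, and Fcer1g had 53 UMIs in 7 of the 35 barcodes.

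The IgE receptor chains were restricted to a small number of barcodes. Fcer1a had 189 UMIs in 51 barcodes and Ms4a2 117 UMIs in 59 barcodes, of 9235. The 36 barcodes with at least 5 UMIs of Cma1, a mast cell chymase, held 158 Fcer1a UMIs (83.6% of all) and 41 of Ms4a2. The 29 barcodes with at least 5 UMIs of Mcpt8, a basophil protease, and fewer of Cma1 held 16 of Fcer1a and 43 of Ms4a2. The remaining 9170 barcodes held 15 and 33.

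**Figure D5:**
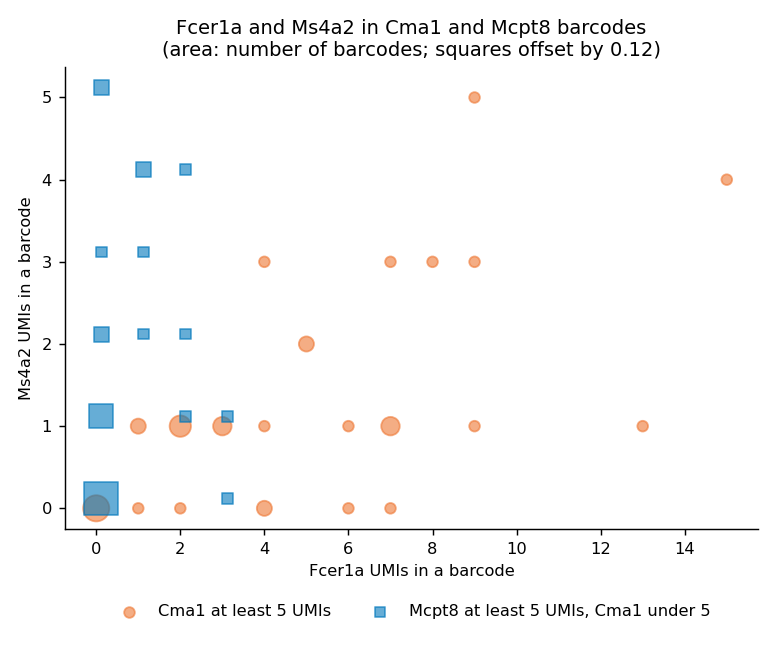
UMIs of Fcer1a (horizontal axis) and Ms4a2 (vertical axis) in single barcodes with at least 5 UMIs of Cma1 (circles) or of Mcpt8 with Cma1 under 5 (squares); the area of a mark is the number of barcodes. Cma1 barcodes extend along the Fcer1a axis (158 against 41 UMIs) and Mcpt8 barcodes along the Ms4a2 axis (16 against 43 UMIs).

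The 2 chains stood in opposite proportion in the 2 sets of barcodes. Fcer1a was 79.4% (73.1% to 84.8%) of the UMIs of both chains in Cma1 barcodes and 27.1% (16.4% to 40.3%) in Mcpt8 barcodes. In libraries 3 to 8 the Cma1 barcodes had 23, 38, 40, 22, 16 and 19 UMIs of Fcer1a and 11, 9, 10, 7, 2 and 2 of Ms4a2. The Mcpt8 barcodes had 0, 0, 5, 5, 0 and 6 UMIs of Fcer1a and 1, 1, 8, 22, 2 and 9 of Ms4a2. Fcer1a was the larger in each of the 6 libraries for Cma1 and the smaller in each for Mcpt8, with few UMIs in libraries 3, 4 and 7 for the latter. The limit of 5 UMIs was chosen after the values had been seen. Both sets also held markers of other cells. In the Mcpt8 barcodes NK markers summed to 8146 CPM (0 to 20458 over libraries) and macrophage markers to 2151 CPM, beside 2595 CPM of basophil markers, and in the Cma1 barcodes macrophage markers summed to 7021 CPM, beside 14770 CPM of mast cell markers. Their part in the proportions was not tested. In the 26 Cma1 barcodes without Csf1r or Adgre1, Fcer1a was at 1355 CPM, Ms4a2 at 333 CPM and Fcer1g at 3242 CPM, and the mast cell protease Cpa3 at 7784 CPM.

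The basophil rule of at least 1 Mcpt8 UMI held more than basophils. Of its 42 barcodes without Csf1r or Adgre1, 15 were picked for a UMI of Gzma, a granzyme of NK cells, which was at 12935 CPM in them. Mcpt8 was at 221 CPM there, with no UMI of Fcer1a or Ms4a2, which allows up to 8.51 CPM. Another 23 had neither Gzma nor Cma1, with Mcpt8, the gene of the rule, at 2516 CPM. Of the other basophil markers Gata2 was at 1195 CPM and Cd200r3 at 728 CPM, although Cd3e was at 418 CPM. Il4 and Il6, also basophil markers, are not given for these 23. In these 23 barcodes Ms4a2 was at 311 CPM (213 to 439), Fcer1a at 107 CPM (53.3 to 191), Fcer1g at 1671 CPM, Fcgr3 at 233 CPM (149 to 347) and Fcgr2b at 87.4 CPM (40 to 166). Fcgr1 had 1 UMI and Fcgr4 and Fcgrt 0, which allows up to 29.1 CPM. Fcgr3 thus had the highest pooled level of the Fcγ receptors in these barcodes, with an interval that overlapped that of Fcgr2b. This division was made after the values had been seen.

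A low level of the IgE receptor in Cd3e barcodes came from a few barcodes. Fcer1a was at 14.0 CPM there (38 UMIs in 7 barcodes) and fell to 0 UMIs in the 257 barcodes without Cma1 or Mcpt8. In macrophages each chain had 15 UMIs (0.205 CPM).

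Sums of a set in a library, each of at least 20 barcodes, gave 31 points. Across these sums, the genes whose log2 level ran most like each member were found among 7970 genes for 6 members. The C1qa-high, Ly6c2-high, Rsad2-high, Ncr1 and Cd3e sets gave 6 sums each and the Flt3 set gave 1. The S100a9, Cd79a and Mcpt8 sets gave 0. Fcgr1 ran with Pgam1 (r = 0.96), Fcgr4 (0.96) and Itgam (0.94), and Fcgr4 with Cndp2 (0.98), Tgm2 (0.97) and Lst1 (0.96). Fcgr2b ran with Tmem106a, Lgmn and Ralb (each 0.98) and Sirpa (0.97), and Fcgr3 with Emilin2 (0.97), Dram2 (0.96) and Lyz2 (0.95). Fcgrt ran with Hfe (0.96) and Fcer1g with Tnfsf13 (0.95). No likeness is given for Fcer1a and Ms4a2, which were at 0 in most sums and had 38 and 20 UMIs in 3 of the 6 Cd3e sums. The nearest member pair was Fcgr1 and Fcgr4, and Fcgr2b was closer to Fcgr3 (0.92) than to Fcgr1 (0.81). The 31 points share libraries and, for the macrophage sets, barcodes, so these values only describe likeness. They set macrophage sums beside lymphocyte sums, and the part of this contrast in r was not tested. Among 4431 single macrophages of equal depth, where counts are sparse, r was lower for these 3 pairs. It was 0.19 for Fcgr1 with Fcgr4, 0.29 for Fcgr3 with Fcgr2b and -0.024 for Fcgr1 with Fcgr2b.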

How the data were processed

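The deposited table holds raw UMI counts per gene and barcode for all tumors, which the authors made from droplet 3′-end libraries of CD45+ cells; the submitters' processing notes name Cell Ranger 1.2, Seurat 3.1.5, R 4.0.1 and mm10. Counts were used as deposited, with no further filter on barcodes, and each barcode ending was taken as a library. Barcodes were put in sets by marker UMIs as stated, the sets were summed, and CPM, exact 95% intervals (Poisson, Clopper-Pearson) and log2 ratios of CPM + 1 were computed with Python 3.11.15, numpy 2.4.6, scipy 1.17.1 and matplotlib 3.10.9. A difference met the rule of size at 1.5-fold over all libraries with 1 direction in every library of at least 20 barcodes in both sets, among genes with at least 20 CPM in either. The rule was tested on simulated data. No doublet caller was run; barcodes with Csf1r or Adgre1 were left out of the sets other than macrophages in place of it. With 1 pooled sample no p-value was computed. The genes named are the 8 members, fixed lists of signalling genes, antibody receptors and antibody chains, and, for 6 members, up to 5 genes most like each; cell type markers and sets are named as the rule gives them. The members, lists and sets were chosen with earlier results of these data known. Alternatives were other depths, gates and limits, library medians, and each library left out. Promoter sequences, positions and 3′-end words were read from RefSeq (GRCm38.p6) and the mouse annotation.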

Additional observations from a re-analysis of the deposited data

How the results depend on the processing

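In the macrophage sets the activating share often moved beyond counting error with the libraries and barcodes used, while in S100a9 barcodes 1 and in Cd79a barcodes 2 alternatives did so. In macrophages (67.1%) it was 66.6% with barcodes thinned to 1000 UMIs and 68.8% as the median of libraries. Without library 5 (singled out after seeing the data, though leaving out each library in turn was planned) it was 69.0%. In C1qa-high macrophages it was 67.3% thinned, 68.9% as the median of libraries, and 64.4% and 68.2% with a limit at the top 50% and 25% of barcodes. In Ly6c2-high macrophages it was 70.9% as the median of libraries, 66.5% with doubled UMI minimums (68.1% in C1qa-high macrophages, which turns the order of these sets), and 67.0% and 70.7% at the top 50% and 25%. In Rsad2-high macrophages it was 70.9% thinned, 69.9% as the median of libraries, 70.0% at the top 25% and 69.0% with a limit set within each library. In S100a9 barcodes it was 64.4% thinned. In Flt3 barcodes it was 27.9% in the 1 library with at least 20 barcodes, 62.7% by the rule alone and 36.4% also without C1q barcodes (added after seeing the data). In Ncr1 barcodes it was 78.3% with doubled minimums, 64.1% by the rule alone and 65.0% without C1q barcodes (added). In Cd79a barcodes it was 33.3% thinned. Leaving out 1 library at a time gave 66.3% to 69.0% for macrophages, 66.9% to 69.4% for C1qa-high, 68.1% to 70.2% for Ly6c2-high and 68.9% to 70.3% for Rsad2-high macrophages, 66.8% to 72.5% for S100a9, 39.8% to 54.7% for Flt3, 66.7% to 77.8% for Ncr1 and 36.4% to 65.2% for Cd79a barcodes. Of 97 alternatives to the shares 57 stayed within the counting interval and 40 moved. Of 132 alternatives to the log2 differences of the 6 members, 82 stayed within the counting interval, 49 moved and 1 turned. Over 1.5-fold moves of differences that left out 0 were, between C1qa-high and Ly6c2-high macrophages, those of Fcgr2b (0.19; 0.31 without library 6, 0.30 as a mean over barcodes or at the top 25%), Fcgr4 (0.21; 0.092 at the top 50%) and Fcer1g (0.075; 0.012 as a mean over barcodes), and between Rsad2 sets those of Fcgr2b (-0.14; -0.060 without library 5) and Fcgrt (-0.30; -0.073 without library 5, -0.45 as a mean over barcodes). In all, 7 had the opposite sign. One value whose interval left out 0 turned, Fcer1g between C1qa-high and Ly6c2-high macrophages at the top 50% (-0.033 against 0.075). The other 6 were for Fcer1g between Rsad2 sets (-0.011, interval -0.025 to 0.0032), which lay between 0.0015 and 0.035 under them. The causes were not tested. The Cd79a, S100a9 and Mcpt8 sets hold 35, 44 and 42 barcodes, which limits their precision. No paired analysis was possible between the treatment groups because the labels give the libraries no group or replicate number. Sets of the same library could be paired without these labels, but no test over libraries was made. The sets do share libraries, and their differences are given library by library as values.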

Other observations

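Macrophages were also divided by other genes, each barcode reduced to 5000 UMIs (4431 barcodes) and divided by whether it held a UMI of the gene. These divisions were chosen after seeing the data and carry no test. Fcgrt and Fcgr2b were high with Cd163, a scavenger receptor of hemoglobin complexes. In 252 barcodes with Cd163, Fcgrt was at 617 CPM against 136 CPM in the others and Fcgr2b at 1322 against 818 CPM, higher in 5 of the 5 libraries with enough barcodes. In 174 barcodes with Retnla, Fcgrt was at 607 against 145 CPM, with 1 library that had enough barcodes and was higher too, and Fcgr2b at 1047 against 838 CPM, with a log2 difference of -0.019 in that library. With Mrc1, the mannose receptor, Fcgr2b was at 946 against 561 CPM and Fcgrt at 196 against 70.1 CPM, higher in 6 of 6 libraries, and Fcgr1 at 420 against 515 CPM, lower in 6 of 6.

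Other genes divided the members differently. With Cd274, which encodes PD-L1, Fcgr1 was at 483 against 389 CPM and Fcgr4 at 578 against 448 CPM, both higher in 6 of 6 libraries, while Fcgr3 was at 684 against 710 CPM and higher in 3 of 6. With the class II gene H2-Ab1, Fcgr4 was at 568 against 414 CPM, higher in 6 of 6, while Fcgr1 was at 448 against 438 CPM and Fcgr3 at 693 against 701 CPM, lower in 6 of 6. With Mmp12, a macrophage elastase, Fcgr4 was at 366 against 563 CPM and Fcgr1 at 360 against 465 CPM, both lower in 6 of 6, and Fcgr3 at 807 against 668 CPM and Fcgr2b at 994 against 811 CPM, both higher in 6 of 6. With Nos2, Fcgr1 was at 574 against 420 CPM, higher in 4 of 5 libraries, and Fcgrt was at 76.6 against 180 CPM, lower in 5 of 5 libraries. With Stat6, the target of the oligonucleotide, the log2 differences of the 6 members lay between -0.12 and 0.18 (1109 barcodes against 3322). The barcodes of a division can come unequally from the libraries, and the part of this in the values over all barcodes was not tested.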
